A study of Mus musculus with 18 samples.

Results

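Kupffer cells, the macrophages that live in the liver sinusoids, were followed in bulk liver RNA through 10 of the 54532 genes in the deposited tables. The genes were taken by name and split by what they mark. Clec4f, Cd5l, Marco, Vsig4 and Timd4 were read as 5 resident Kupffer cell genes, Adgre1, Csf1r and Cd68 as 3 general macrophage genes, and Cd74 and H2-Aa as 2 genes of class II antigen presentation. All 10 had a mean of at least 0.5 FPKM (read fragments divided by gene length in kilobases and by a library size) in both experiments and so entered every test that used this limit.

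Resident Kupffer cells settle in the liver before birth, renew themselves there and depend on signalling through the CSF1 receptor. They clear bacteria, dying cells and worn red cells from portal blood through scavenger and complement receptors, and Clec4f, a C-type lectin receptor, is made in mice almost only by them. Recruited monocytes can fill an emptied niche, and they gain Clec4f and then Timd4 with time. Class II molecules present peptides to helper T cells and are made by dendritic cells and B cells as well as by macrophages, so their level in whole liver belongs to no single cell type.

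The mice were male wild-type C57BL/6J, randomly placed at 4 wk of age on a control diet (Ctrl) or an isocaloric diet lacking 99% of riboflavin, vitamin B2 (B2D). In the first experiment 5 Ctrl and 5 B2D mice were fed for 4 wk. In the second, 4 control (Ctrl+FF) and 4 deficient mice (B2D+FF) were fed for 9 wk and all 8 also received the PPARα agonist fenofibrate by daily gavage at 300 mg/kg in weeks 7 to 9, with a last dose 2 h before harvest. All mice were fasted overnight, and each gave 1 liver library. The comparison of diets within each experiment asks whether riboflavin depletion moved these genes, and the contrast between experiments whether its effect differed. The experiments differed in fenofibrate, in time on diet and in the table their values were normalized in, and these cannot be told apart.

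The libraries held between 15320729 and 21898502 reads on genes, no pair was identical, and mice of the same group correlated at 0.958 to 0.990 (Pearson r of log2(FPKM + 1)). The tissue label was matched by Alb, the albumin gene of hepatocytes, at group means between 12140 and 25070 FPKM. Stab2, a scavenger receptor of sinusoidal endothelium, lay between 2.49 and 6.08 FPKM in every mouse. Cd3e of T cells stayed at or below 0.185, Cd79a of B cells at or below 1.04 and S100a8 of neutrophils at or below 4.18 FPKM. In bulk RNA, fewer cells of a type and less RNA per cell cannot be told apart.

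Clec4f had the second highest mean of the resident genes in every group, after Cd5l, and it was the member that fell on the deficient diet. In Ctrl mice 1 to 5 it was 27.2, 32.7, 25.5, 30.3 and 27.8 FPKM, and in B2D mice 1 to 5 it was 17.0, 23.0, 20.9, 19.0 and 22.3 FPKM. Every B2D mouse lay below every Ctrl mouse. The mean was 28.7 ± 2.83 FPKM in Ctrl and 20.4 ± 2.47 FPKM in B2D (SD, n = 5 each), 71.2% of control. On log2(FPKM + 1), the scale of every log2 fold change here, the change was -0.47 (SE 0.11, limma adjusted p = 0.0412). Where FPKM are low, this scale makes a change look smaller than it is. The call lay near its threshold: Clec4f passed in 4 of 18 alternative settings, with adjusted p between 0.0258 and 0.119, and was lost with 9 of the 10 single mice left out, Ctrl 3 being the exception. Its log2 fold change stayed between -0.52 and -0.39 in all of them. With 5 mice against 5, the exact two-sided permutation test gave the smallest p it can, 0.00794.

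With fenofibrate the Clec4f values were again separated by diet. The Ctrl+FF mice had 20.5, 28.7, 33.7 and 22.4 FPKM, and the B2D+FF mice 17.6, 11.5, 20.2 and 18.01 FPKM. The highest B2D+FF mouse lay just below the lowest Ctrl+FF mouse. The means were 26.4 ± 6.05 and 16.8 ± 3.74 FPKM (SD, n = 4 each). On the log2 scale this was -0.62 (SE 0.20), larger in size than without fenofibrate but with more spread between mice. It did not pass in limma (unadjusted p = 0.0111, adjusted p = 0.108). The exact permutation p was 0.0286, again the smallest that 4 against 4 allows. The effects of the diet on Clec4f in the experiments differed by -0.15 (SE 0.22, limma adjusted p = 0.828), a difference within its error.

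The Clec4f gene (ENSMUSG00000014542) spans 83644542 to 83656187 of chromosome 6 on the minus strand of GRCm38, the build of the tables. Its promoter is shown because Clec4f is the member past the threshold. The start of the gene in the tables lies 71 bases upstream of the RefSeq start. The 100 bases given, in GRCm38.p6 on the minus strand at chr6:83656184-83656283, therefore end with the match, whose last 4 bases lie inside the gene as the tables have it, with capitals marking the letters ATTGG, the core of the Y box bound by NF-Y:
Clec4f: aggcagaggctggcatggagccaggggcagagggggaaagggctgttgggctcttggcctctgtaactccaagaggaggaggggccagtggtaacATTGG
The match begins 72 bases before the RefSeq start. Within 250 bases before the start, 33.8% of the 32851 RefSeq promoters hold ATTGG or its reverse complement CCAAT, so the match is a common one. Of the 7 member promoters searched, 4 hold it, those of Clec4f, Timd4, Cd68 and H2-Aa. AGGAAGT or its reverse, a core of the myeloid factor PU.1, is in 7.69% of the RefSeq promoters and in none of the 7 member promoters searched. Outside the members, the promoters of C1qb and C1qc each hold 1 such match. A match describes letters in a window and is no evidence of binding.

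Cd5l encodes a secreted scavenger-type protein (AIM) that macrophages release into plasma. Its level was 31.0, 36.6, 29.2, 31.4 and 41.8 FPKM in Ctrl and 23.4, 27.9, 31.8, 23.8 and 35.8 FPKM in B2D. The groups overlapped, with 3 of 5 B2D mice below the lowest Ctrl mouse, and the log2 fold change of -0.25 (SE 0.14) did not pass (limma adjusted p = 0.366). With fenofibrate, Ctrl+FF mice had 29.3, 36.0, 47.0 and 24.6 FPKM and B2D+FF mice 38.4, 17.5, 23.1 and 33.0 FPKM. Both groups there were spread over their whole ranges, and the log2 fold change was -0.30 (SE 0.26, limma adjusted p = 0.547).

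Vsig4, the complement receptor CRIg that captures C3b-coated particles, was the resident gene with the log2 fold change nearest 0 without fenofibrate. It was 11.9 ± 2.07 FPKM in Ctrl and 11.5 ± 2.92 FPKM in B2D (SD, n = 5 each). The log2 fold change was -0.07, its 95% interval ran from -0.43 to 0.29, and limma gave an adjusted p of 0.852. Leaving out Ctrl 5 or B2D 1 turned the sign, to 0.0046 and 0.04 on the log2 scale. In Ctrl+FF it was 9.28, 11.5, 16.9 and 8.11 FPKM, and in B2D+FF it was 10.2, 6.10, 8.14 and 10.2 FPKM. The Ctrl+FF mouse 3 stood above all the others and the rest overlapped (log2 fold change -0.34, SE 0.22, limma adjusted p = 0.416).

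Timd4, a phosphatidylserine receptor for dying cells and a mark of long-lived Kupffer cells, was low in all groups and rested on 46 to 142 reads a library. It was 2.33, 2.54, 1.70, 2.20 and 2.31 FPKM in Ctrl and 1.15, 1.51, 2.57, 1.54 and 3.03 FPKM in B2D. The B2D mice lay on both sides of the Ctrl range, 3 below it and 2 above it. Its log2 fold changes were -0.16 (SE 0.16, limma adjusted p = 0.646) without fenofibrate and -0.19 (SE 0.26, limma adjusted p = 0.723) with it. With fenofibrate the means were 2.31 ± 0.766 FPKM for Ctrl+FF mice and 2.01 ± 1.24 FPKM for B2D+FF (SD, n = 4 each), and B2D+FF mouse 1 alone held 3.84 FPKM while the other B2D+FF mice held 1.06 to 1.65.

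Marco, a scavenger receptor that binds bacteria and particles, was the single member whose fold change was positive. It was 0.847, 2.06, 3.74, 0.471 and 3.50 FPKM in Ctrl and 2.60, 2.37, 8.02, 4.47 and 6.91 FPKM in B2D. Of the B2D mice, 3 of 5 lay above the highest Ctrl mouse and the other 2 fell inside the Ctrl range. The log2 fold change was 0.95 (SE 0.37), with an unadjusted p of 0.0246 and a limma adjusted p of 0.199 that did not pass. The lowest value came from 18 reads and the highest of all libraries from 808, so the low Ctrl values carry more counting error than those of Clec4f, which rested on 576 to 1487 reads.

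With fenofibrate the Marco difference rested on 1 mouse. The Ctrl+FF mice held 1.74, 1.29, 2.66 and 1.62 FPKM, and the B2D+FF mice 24.6, 0.996, 0.904 and 5.30 FPKM. Of the B2D+FF mice, 2 lay below and 2 above the whole Ctrl+FF range. The log2 fold change of 0.84 (SE 0.72, limma adjusted p = 0.546) became 0.05 (SE 0.40, adjusted p = 0.968) without B2D+FF mouse 1. The ratio of Marco to Clec4f, read within each liver, ran from 0.0155 to 0.147 in Ctrl and from 0.103 to 0.384 in B2D, and from 0.0450 to 0.0848 in Ctrl+FF and 0.0448 to 1.40 in B2D+FF, whose lowest mouse lay at the low end of the Ctrl+FF range. Summed neutrophil markers were also higher in the deficient groups, at 2.23 to 7.07 FPKM in B2D against 0.919 to 2.74 in Ctrl and at 3.86 to 14.4 in B2D+FF against 2.69 to 4.60 in Ctrl+FF, over 9 markers that include S100a8, which is listed at 0 in at least 1 Ctrl mouse. The highest sum of each deficient group was in mouse 2, at 7.07 FPKM in B2D and 14.4 in B2D+FF. Marco was 2.37 and 0.996 FPKM in these mice. The mice highest in Marco, B2D mouse 3 and B2D+FF mouse 1, had sums of 5.97 and 7.38 FPKM. The part of neutrophils in the Marco values was not tested.

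**Figure D1:**
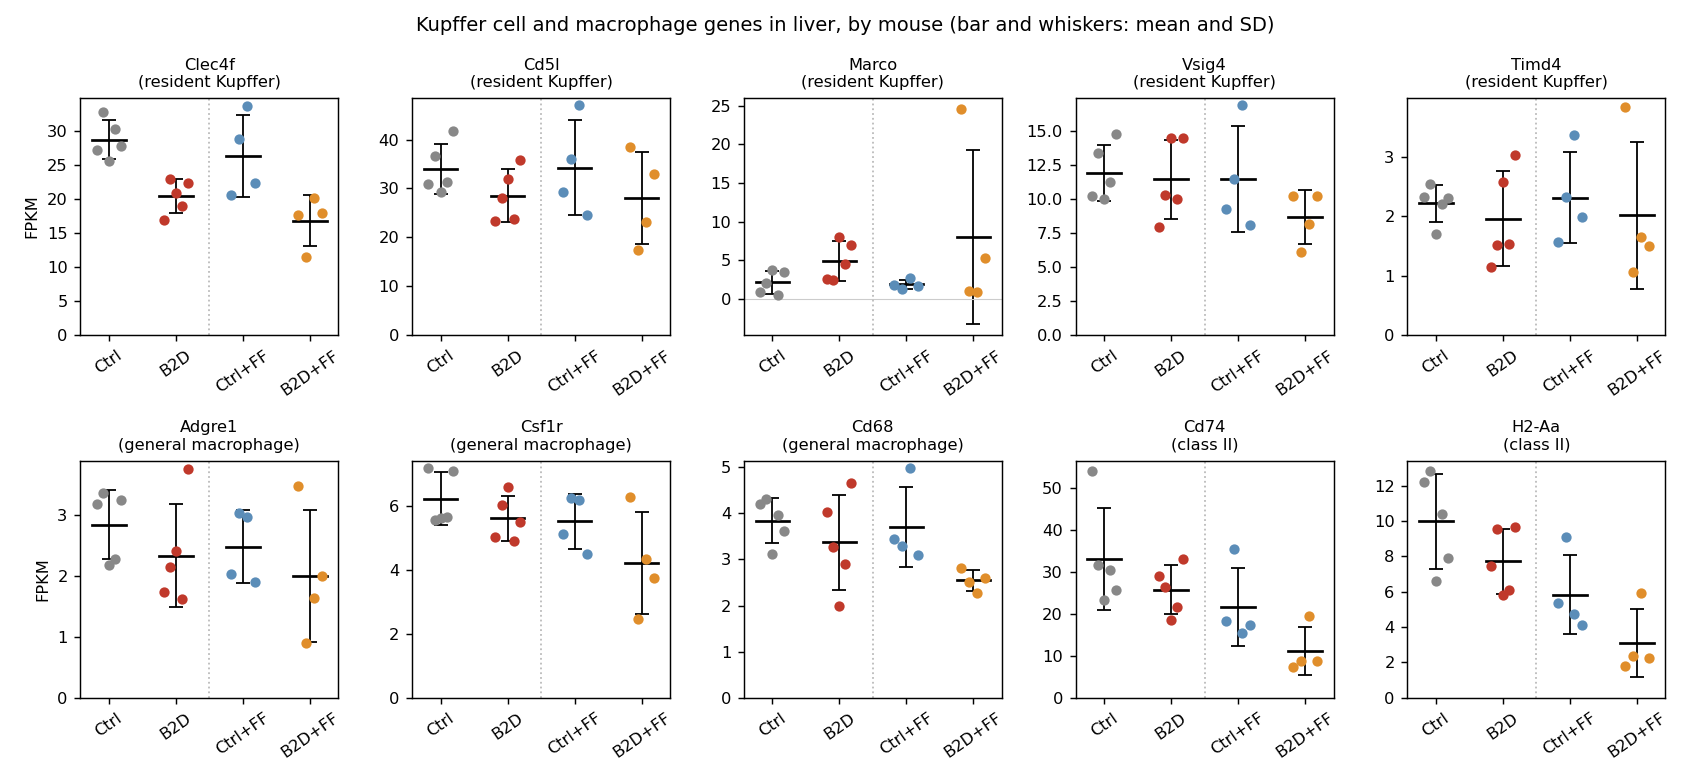
FPKM (vertical axis, linear, different in each panel) of each of the 10 genes in each mouse of the 4 groups, with black bars at the group mean and whiskers of 1 SD, and a dotted line between the experiments, whose tables were normalized separately. Clec4f is the gene whose diet groups do not overlap in either experiment; the Marco mean in B2D+FF is carried by 1 mouse at 24.6 FPKM.

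Adgre1, the gene of F4/80, is the adhesion receptor by which mouse macrophages are most often stained. It was 2.85 ± 0.573 FPKM in Ctrl and 2.34 ± 0.852 FPKM in B2D (SD, n = 5 each), and with fenofibrate 2.48 ± 0.604 FPKM for Ctrl+FF mice against 2.01 ± 1.09 FPKM for B2D+FF (SD, n = 4 each). The B2D mice ran from 1.62 to 3.75 and so past both ends of the Ctrl range of 2.18 to 3.36 FPKM. Neither log2 fold change passed, at -0.23 (SE 0.16, limma adjusted p = 0.483) and -0.27 (SE 0.24, limma adjusted p = 0.562). F4/80 message gave no call, and the difference between its change and that of Clec4f was not tested.

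Csf1r, the receptor for CSF1 and IL-34 on which macrophage survival depends, lies on chromosome 18 from 61105572 to 61132149 in GRCm38 and overlaps Hmgxb3 on the opposite strand, which was itself measured at 1.57 to 2.77 FPKM. The library kit used does not mark strand, so reads in the overlap could not be assigned by strand. Csf1r was 7.19, 5.57, 5.63, 5.67 and 7.10 FPKM in Ctrl and 5.04, 6.03, 6.59, 4.93 and 5.50 FPKM in B2D. With fenofibrate it was 5.14, 6.27, 6.18 and 4.51 FPKM in Ctrl+FF and 6.29, 2.47, 4.36 and 3.77 FPKM in B2D+FF. Of the B2D+FF mice 3 lay below all the Ctrl+FF mice, and mouse 1 lay above them all. The log2 fold changes were -0.13 (SE 0.11, limma adjusted p = 0.554) and -0.36 (SE 0.20, limma adjusted p = 0.343).

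The messages of the receptor's ligands did not pass either. Csf1 was 1.31 FPKM in Ctrl and 1.34 FPKM in B2D (means), and 1.25 in Ctrl+FF and 0.715 FPKM in B2D+FF, where the log2 fold change was -0.42 (unadjusted p = 0.0265, limma adjusted p = 0.171, and 0.0484 without B2D+FF mouse 3). Il34 was 0.908 FPKM in Ctrl and 0.494 FPKM in B2D (log2 fold change -0.34, unadjusted p = 0.0216, limma adjusted p = 0.188), and 0.728 and 0.744 FPKM with fenofibrate. Each ligand thus had its lower mean in only 1 of the experiments, and the groups overlapped in both. Of 10 genes of CSF1 receptor ligands and Kupffer chemokines, 7 were tested without and 6 with fenofibrate, none passed in limma or voom, and 2 were lower in each at an unadjusted p under 0.05.

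Cd68, a lysosomal glycoprotein of phagocytes, rested on 44 to 111 reads. It was 4.20, 4.30, 3.11, 3.97 and 3.61 FPKM in Ctrl and 4.02, 3.26, 1.99, 2.91 and 4.64 FPKM in B2D, and these overlapped. In Ctrl+FF it was 3.44, 3.29, 4.99 and 3.10 FPKM, and in B2D+FF 2.80, 2.50, 2.27 and 2.60 FPKM. Every B2D+FF mouse lay below every Ctrl+FF mouse, and the deficient mice were close together (SD 0.222 FPKM against 0.868). The log2 fold change was -0.18 (SE 0.16, limma adjusted p = 0.576) without fenofibrate and -0.39 (SE 0.12, unadjusted p = 0.00977, limma adjusted p = 0.101) with it. Of the 10 genes it had the smallest unadjusted p with fenofibrate, and its exact permutation p was 0.0286, the smallest possible.

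The class II genes had the lowest ratios of means with fenofibrate, Cd74 at 51.4% and H2-Aa at 53.3% of control, and neither passed. H2-Aa, the alpha chain of the I-A molecule (chromosome 17, 34282744 to 34287827, minus strand of GRCm38), was 12.2, 12.8, 6.63, 10.4 and 7.91 FPKM in Ctrl and 7.48, 9.53, 5.81, 6.08 and 9.68 FPKM in B2D. In Ctrl+FF it was 5.37, 9.08, 4.76 and 4.12 FPKM, and in B2D+FF 1.82, 2.39, 5.96 and 2.27 FPKM. All B2D+FF mice but mouse 3 lay below the lowest Ctrl+FF mouse. The log2 fold change was -0.32 (SE 0.19, limma adjusted p = 0.382) without fenofibrate and -0.78 (SE 0.30, unadjusted p = 0.0263, limma adjusted p = 0.170) with it.

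The promoters of H2-Aa and H2-Eb1, the beta chain of the I-E molecule, are shown since these genes varied together between mice (r = 0.876 over the 18 mice, as deviations from the group means). Class II promoters are known to carry W, X and Y elements in a fixed order just before the start, on which RFX, CREB-type factors and NF-Y assemble and recruit CIITA. Capitals mark ATTGG or its reverse CCAAT, the Y box core, in the last 100 bases before the RefSeq start (GRCm38.p6), each on its gene's strand, minus at chr17:34287824-34287923 for H2-Aa and plus at chr17:34305767-34305866 for H2-Eb1:
H2-Aa: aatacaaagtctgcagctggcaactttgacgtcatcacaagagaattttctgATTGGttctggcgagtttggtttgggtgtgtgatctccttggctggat
H2-Eb1: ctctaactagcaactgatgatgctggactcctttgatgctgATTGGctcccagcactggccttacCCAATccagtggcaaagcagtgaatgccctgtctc
The first match lies 48 bases before the start in H2-Aa and 59 in H2-Eb1, which has a second one on the other strand. Of the other class II genes searched, H2-DMb1 also held a match within 100 bases of its RefSeq start, and neither of the 2 promoters of H2-DMa did. The share of all promoters with such a match in a window of 250 bases, 33.8%, is given above.

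H2-Eb1 was at a mean of 12.4 FPKM in Ctrl, 8.73 in B2D, 8.93 in Ctrl+FF and 4.38 in B2D+FF, while H2-DMb1, part of the H2-M peptide exchange factor, had means of 1.60, 1.07, 1.15 and 0.640 FPKM in the same order. Neither passed in either experiment. H2-Ab1, the beta chain that pairs with H2-Aa, gave log2 fold changes of -0.45 (limma adjusted p = 0.333) and -0.93 (limma adjusted p = 0.192), the second passing without B2D+FF mouse 3 (limma adjusted p = 0.0447). Ciita, the master activator of these promoters, was below the limit for testing, at 0.102, 0.105, 0.123 and 0.0298 FPKM. Of the other genes of class II presentation, 16 were in the tables and 10 were tested in each experiment. None of them passed at an adjusted p under 0.05 in limma or voom in either experiment, and at an unadjusted p under 0.05 there was 1 lower without fenofibrate and 2 lower with it. Their median log2 fold change was -0.22 without fenofibrate and -0.19 with it, against -0.0013 and 0.01 over all genes tested.

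Cd74, the invariant chain that guides class II molecules to the endosome, lies on chromosome 18 from 60803848 to 60812646. It was 54.1, 31.7, 23.4, 30.5 and 25.7 FPKM in Ctrl and 29.0, 26.5, 18.5, 21.7 and 33.2 FPKM in B2D. In Ctrl+FF it was 18.4, 35.5, 15.4 and 17.5 FPKM, and in B2D+FF 7.41, 8.82, 19.6 and 8.75 FPKM. In 3 of the 4 groups, all but B2D, a lone mouse stood far above the rest, Ctrl 1, Ctrl+FF 2 and B2D+FF 3. The log2 fold change was -0.31 (SE 0.22, limma adjusted p = 0.462) without fenofibrate and -0.92 (SE 0.32, unadjusted p = 0.0174, limma adjusted p = 0.137) with it. Without B2D+FF mouse 3 the fenofibrate values became -1.21 for Cd74 (limma adjusted p = 0.0355) and -1.07 for H2-Aa (limma adjusted p = 0.0315), past the threshold. The library was kept.

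Markers of dendritic and B cells, which make class II, and of T and NK cells were low, and their sums had lower means in B2D+FF than in Ctrl+FF. Summed over 11 dendritic cell markers, the level was 1.56 to 2.14 FPKM in B2D+FF against 2.03 to 2.93 in Ctrl+FF, and over 10 B cell markers 0.644 to 3.23 against 3.20 to 4.74 FPKM, each overlapping at the edge. The summed T and NK cell markers, 15 genes of which none reached the limit for testing, were 1.03 to 1.79 against 1.42 to 2.75 FPKM. Cd79a was listed at 0 in at least 1 B2D+FF mouse. The sums of cholangiocyte markers, a cell type outside these, also had a lower range, at 3.44 to 4.52 FPKM in B2D+FF against 4.21 to 6.09 in Ctrl+FF. Without fenofibrate the B cell sums overlapped widely, at 1.84 to 5.32 FPKM in B2D and 2.37 to 5.76 in Ctrl. The dendritic cell sums also overlapped there, at 2.41 to 3.09 FPKM in B2D and 2.67 to 3.68 in Ctrl. The part of any of these cell types in the Cd74 and H2-Aa values was not tested.

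**Figure D2:**
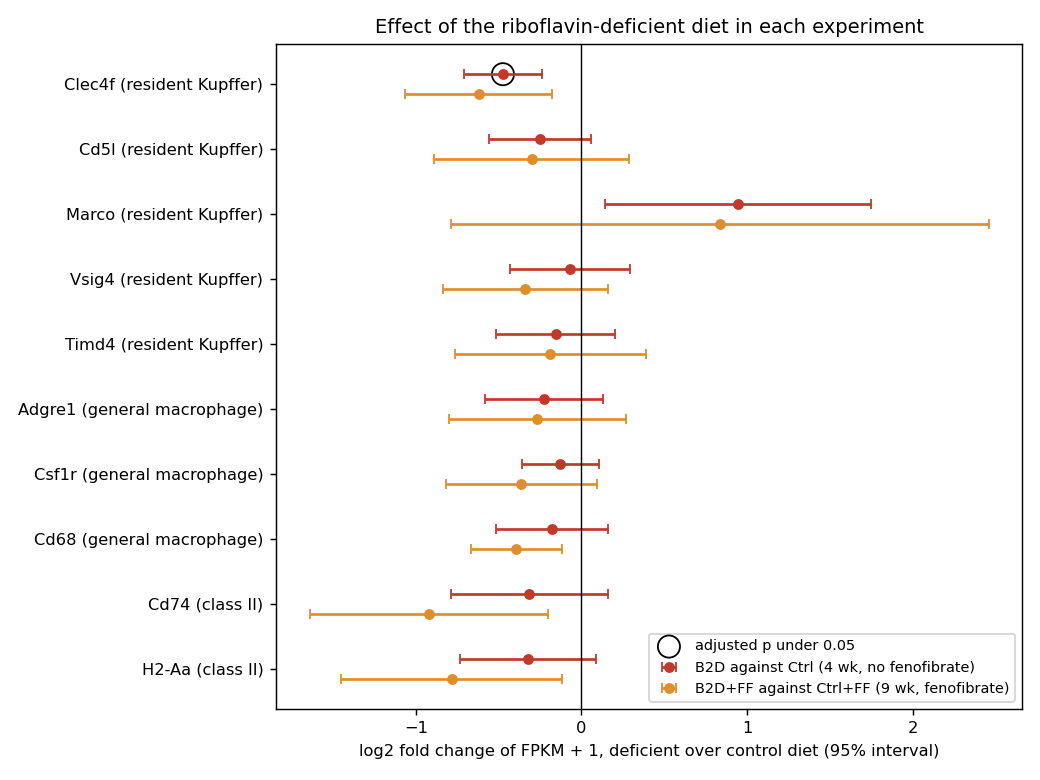
Log2 fold change of FPKM + 1 (horizontal axis, deficient over control diet) of each gene with its 95% interval from limma, without fenofibrate (red, 5 mice per diet) and with it (orange, 4 per diet); a black ring marks an adjusted p under 0.05. Clec4f without fenofibrate is ringed, and the Marco interval with fenofibrate, from -0.79 to 2.46, is the widest.

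Counted together, 9 of the 10 genes had a negative log2 fold change in each experiment, and Marco was the exception in both. Among all genes tested, 50.2% were negative without fenofibrate and 47.2% with it. At an adjusted p under 0.05 in limma, 1 of 10 was lower in B2D, where 1.94% of 11574 genes were lower, and none was higher, where 0.769% were. The count at an unadjusted p under 0.05 was 1 lower (background 10.1%) and 1 higher (background 8.24%), and voom on the recovered reads called none at its adjusted threshold. The groups did not overlap, with B2D lower, for 1 of 10 and for 2.89% of all genes tested. The median over the 10 genes was -0.20, and it was -0.16 for the resident, -0.18 for the general and -0.32 for the class II genes.

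With fenofibrate the medians were -0.35 over the 10 genes, and -0.30, -0.36 and -0.85 for the resident, general and class II genes. None of the 10 passed an adjusted p under 0.05 in limma, where 2.21% of 11878 genes were lower and 2.24% higher, and none did with voom. At an unadjusted p under 0.05, 4 of 10 were lower, Cd68, Clec4f, Cd74 and H2-Aa, against 9.93% of all genes tested. Every B2D+FF mouse was below every Ctrl+FF mouse for 2 of 10, Clec4f and Cd68, against 6.44%. The 10 genes share cells and vary together, so their counts are not 10 independent observations.

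The diet effect did not differ between the experiments for any of the 10 genes at an adjusted p under 0.05 in limma, where 0.228% of 11862 genes did, nor for any at an unadjusted p under 0.05, where 11.9% did. The class II genes had the largest negative differences, Cd74 at -0.61 (SE 0.40, limma adjusted p = 0.568) and H2-Aa at -0.46 (SE 0.36, limma adjusted p = 0.638). Those of Timd4, Adgre1, Cd5l and Marco lay between -0.11 and -0.03, each well inside its SE.

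Across the 4 groups the order of means was Ctrl, B2D, Ctrl+FF, B2D+FF for Vsig4, Csf1r, Cd74 and H2-Aa. It was Ctrl, Ctrl+FF, B2D, B2D+FF for Clec4f, Adgre1 and Cd68. B2D+FF had the lowest mean in all but Marco, where it had the highest, and Timd4, where B2D was lower. The highest mean was 3.22 times the lowest for H2-Aa, 2.97 times for Cd74 and 1.71 times for Clec4f, but 1.22 times for Cd5l and 1.18 times for Timd4. Within a table, Clec4f without fenofibrate was the only one of the 10 that differed between diets past the adjusted threshold, and steps between tables carry no test.

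Within groups the genes fell into sets by how the mice varied. Each value was taken as the deviation of log2(FPKM + 1) from its group mean, over 18 mice, and the correlations are descriptions without a test, since all genes of a library share its tissue piece, depth and scaling. Cd5l and Vsig4 had r = 0.929 (Spearman rho 0.903), 0.942 without and 0.947 with fenofibrate, and 0.932 after leaving out the 2 mice farthest from the Cd5l median. Cd5l and Adgre1 had r = 0.886, and Timd4 and Adgre1 0.878. Clec4f followed less closely, at 0.618 to 0.749 with Cd5l, Vsig4 and Timd4, and not with Marco (0.182). Over the 10 pairs of resident genes the median r was 0.703.

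Csf1r joined the resident genes mainly through the fenofibrate mice. Its r with Adgre1 was 0.954 there and 0.441 without fenofibrate, and with Cd5l 0.821 and 0.496. B2D+FF mouse 1 was the highest of its group for Marco, Timd4, Adgre1, Csf1r, Cd5l and Cd68, and B2D+FF mouse 2 the lowest for Clec4f, Cd5l, Vsig4, Timd4, Adgre1 and Csf1r. Over the 18 mice Cd68 followed none of the members above 0.391. With fenofibrate its r was 0.797 with Vsig4 and 0.693 with Cd5l, and without fenofibrate -0.141 and 0.084.

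Cd74 and H2-Aa varied together, and over the 18 mice they followed no other member above 0.429. Their r was 0.902 (rho 0.915), 0.789 without and 0.975 with fenofibrate, and 0.813 without the 2 mice farthest from the Cd74 median. The ratio of Cd74 to H2-Aa was steady over groups, at a mean of 3.33 ± 0.733 in Ctrl, 3.37 ± 0.415 in B2D, 3.70 ± 0.454 in Ctrl+FF, and 3.73 ± 0.336 for B2D+FF mice (SD). With the 5 resident genes their r lay between -0.575 and 0.429, with a median of -0.07. The lowest were with Marco, -0.575 for H2-Aa and -0.55 for Cd74, which shrank to -0.369 and -0.382 without the 2 mice farthest from the Marco median. Cd74 followed Ciita at 0.64, though Ciita was too low to be tested. With the 3 general macrophage genes, r over the 18 mice lay between 0.085 and 0.231. For Cd68 this joined opposite signs. Its r was 0.75 with Cd74 and 0.744 with H2-Aa without fenofibrate, and -0.531 and -0.386 with it. The r of H2-Aa without and with fenofibrate was 0.602 and 0.364 for Clec4f, 0.521 and -0.077 for Adgre1, and 0.024 and 0.112 for Csf1r.

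**Figure D3:**
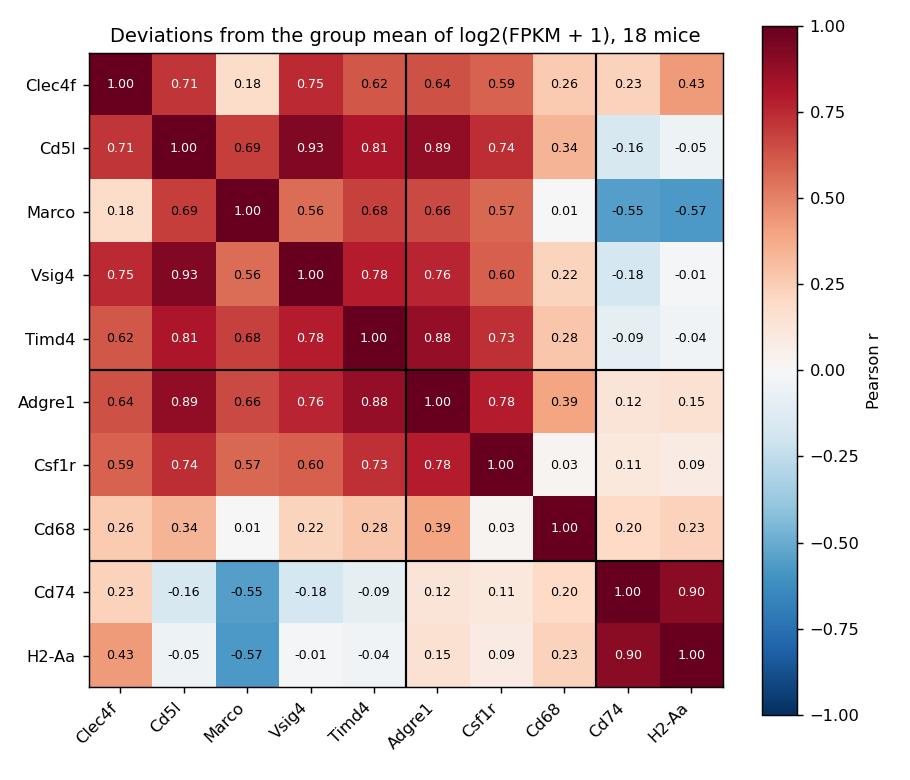
Pearson r between the 10 genes (rows and columns, colour from -1 to 1) of the deviations of log2(FPKM + 1) from the group mean over 18 mice; black lines divide resident Kupffer, general macrophage and class II genes. Cd5l, Vsig4, Timd4 and Adgre1 form a block with r from 0.76 to 0.93, Cd74 and H2-Aa stand at 0.90, and Cd68 is pale throughout.

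**Figure D4:**
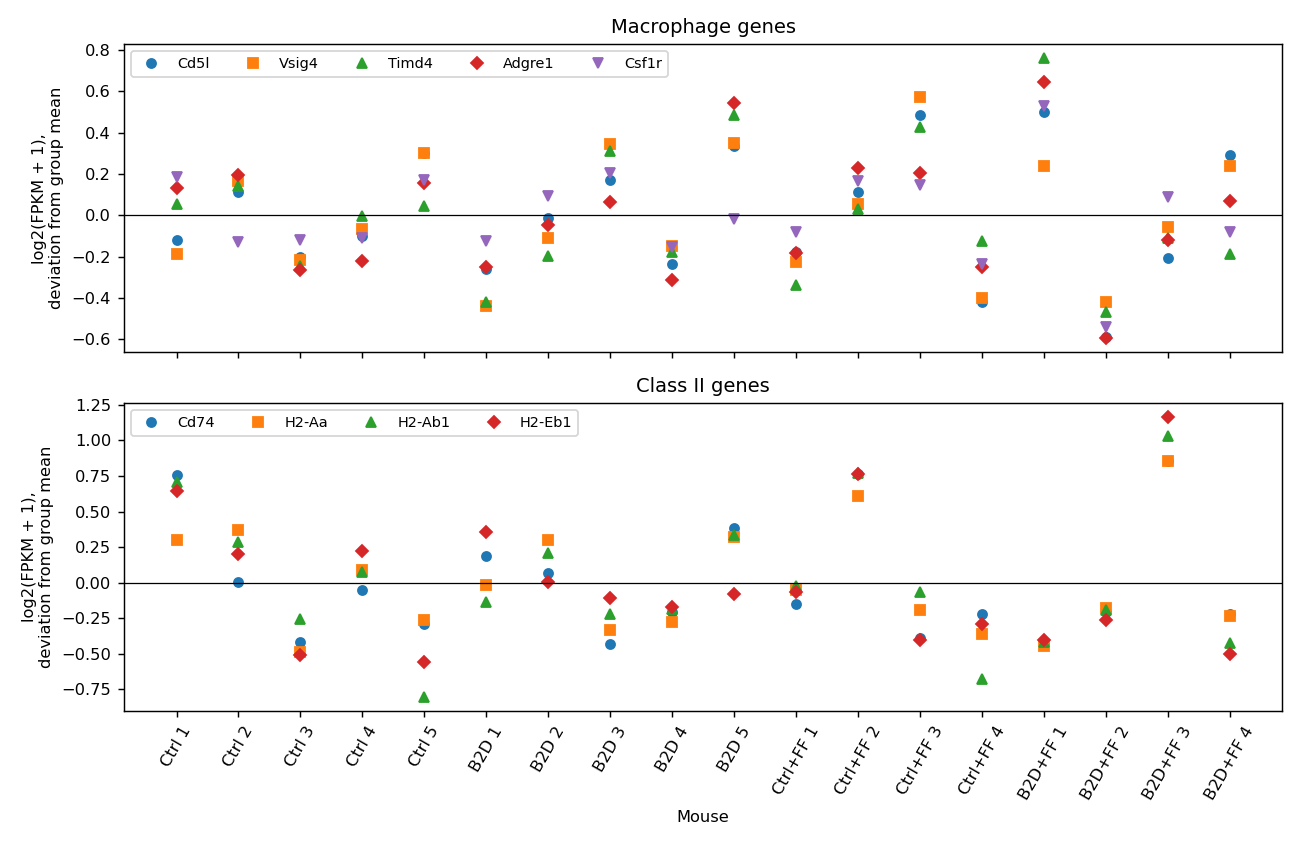
Deviation of log2(FPKM + 1) from the group mean (vertical axis) for each of the 18 mice (horizontal axis), for 5 macrophage genes above and 4 class II genes below. Macrophage genes are high together in B2D+FF mouse 1, whose class II genes are low, and class II genes are high together in Ctrl+FF mouse 2 and B2D+FF mouse 3.

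The genes most like the mean of the 5 resident genes by this measure, of 11862 ranked, were Sgcb (r = 0.903), Adgre1 (0.868), Lyz2 (0.852), Sirpa (0.83) and Rpl36a (0.826). The deviations were averaged without scaling, so Marco weighed most in this mean. Its deviations ran from -1.39 to 2.37, and those of Timd4, the next widest, from -0.47 to 0.76. Lyz2, lysozyme, and Sirpa, the receptor for CD47, are myeloid genes, and Sgcb, a sarcoglycan, averaged only 0.642 FPKM. Nearest to the class II mean were H2-Ab1 (0.913), H2-Eb1 (0.911), Shisa5 (0.835), Eif3j2 (0.808) and Ccl27a (0.737). With a pseudocount of 0.1, 4 genes of each set of 5 stayed among the nearest 5. With quantile normalization 2 of the resident set, Sgcb and Adgre1, and 4 of the class II set did.

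Among 29 other genes known from Kupffer cells, 22 were tested in each experiment. On the deficient diet 2 of them fell without fenofibrate, C6 and C1qa, and 2 fell with it, C6 and Paqr9. None rose in either experiment. By voom the same 2 fell without fenofibrate, and Axl was added with it. The medians were -0.14 without and -0.15 with fenofibrate. C1qa, a chain of the first complement component and largely made by macrophages in liver, was 30.4 ± 2.98 FPKM in Ctrl and 21.1 ± 2.03 FPKM in B2D (SD, n = 5 each), without overlap (log2 fold change -0.50, limma adjusted p = 0.0275). This call was lost in 9 of 18 alternative settings, 6 of them with a single mouse left out (Ctrl 1, 2 or 4, B2D 2, 3 or 4), with adjusted p up to 0.0933. Its partners C1qb (-0.40, limma adjusted p = 0.0846) and C1qc (-0.30, limma adjusted p = 0.189) did not pass. With fenofibrate C1qa was 23.1 ± 4.15 and 24.6 ± 9.17 FPKM (SD, n = 4 each), and its log2 fold change there was 0.03 (limma adjusted p = 0.964).

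C6, a terminal complement component that hepatocytes also make, was the most changed gene of that list. It was 45.1 to 64.1 FPKM in Ctrl and 6.27 to 39.9 FPKM in B2D (log2 fold change -1.69, limma adjusted p = 0.0349), and 9.14 to 14.7 in Ctrl+FF and 1.99 to 4.06 FPKM in B2D+FF (-1.71, limma adjusted p = 0.00314). Its groups did not overlap in either experiment. Without fenofibrate the C6 call was lost with any of 7 single mice left out (Ctrl 1, 2, 4 or 5, B2D 2, 4 or 5), with adjusted p up to 0.0965, and with no filter (adjusted p = 0.122 in limma). With fenofibrate it passed in all 16 settings. Paqr9, of the progestin and adipoQ receptor family, had a log2 fold change of -0.48 with fenofibrate (limma adjusted p = 0.0447) and 0.12 without it (limma adjusted p = 0.798). The Paqr9 call was lost with 7 of 8 single mice left out, Ctrl+FF 3 being the exception. Both had higher mean FPKM in Ctrl than any of the 5 resident genes, Paqr9 at a mean of 56.1 and C6 at 54.2, and their source in these livers was not tested.

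Of 42 other general myeloid genes, 35 were tested without and 34 with fenofibrate. With fenofibrate none of them passed in limma, and voom called Mpeg1 lower. At an unadjusted p under 0.05 there were 7 lower and 0 higher without fenofibrate and 6 lower and 1 higher with it. Their medians were -0.11 and -0.18. Over all genes tested, 10.1% were lower and 8.24% higher at this p without fenofibrate. With it 9.93% were lower, and 1339 of 11878 genes were higher. The same shares are the background of such counts in the other lists.

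Genes of recruited monocytes and lipid-associated macrophages were above the limit for testing for 10 of 19 in each experiment. None passed at an adjusted p under 0.05 in limma or voom. At an unadjusted p under 0.05 in limma there was 1 lower (Ear2) and 1 higher (Cd9) without fenofibrate. With it there was 1 lower (Fabp5) and 2 higher (Cd9 and Cd63). The limma adjusted p of Cd9 was 0.0761 without and 0.0886 with fenofibrate. The summed level of the list was 29.1 to 69.5 FPKM in Ctrl and 35.7 to 41.2 in B2D, and 23.7 to 40.1 in Ctrl+FF and 27.6 to 41.0 in B2D+FF. These sums overlapped in both experiments and hide single genes. In Ctrl, Spp1 alone had a mean of 22.6 FPKM, where the sum had a mean of 47.0.

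Few markers of other cell types passed. Of 13 sinusoidal endothelial markers tested, Lyve1, a hyaluronan receptor, rose with fenofibrate (log2 fold change 0.77, limma adjusted p = 0.0294), and none passed without it in limma or voom, where 1 was higher at an unadjusted p under 0.05. Of the neutrophil markers, Retnlg had means of 1.63 FPKM in B2D+FF and 0.301 in Ctrl+FF (log2 fold change 0.97, limma adjusted p = 0.0280). It rested on 9 to 30 reads a library in B2D+FF and 2 to 5 in Ctrl+FF. Its Ctrl+FF mean lay below the limit of 0.5 FPKM, so it entered the test only through its B2D+FF values. Without fenofibrate Retnlg was not tested. None of the 3 that were tested passed in limma or voom there, with 2 higher at an unadjusted p under 0.05. No dendritic cell, B cell or cholangiocyte marker passed in limma or voom, among 3 tested without fenofibrate for each and 2, 1 and 2 with it. At an unadjusted p under 0.05 none of these was lower or higher without fenofibrate, and with it 1 B cell and 2 cholangiocyte markers were lower. No stellate cell marker of 12 passed in limma, with 1 lower in each experiment at an unadjusted p under 0.05, and voom called Col3a1 lower with fenofibrate.

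Alas2, the haem synthesis enzyme of red cell precursors, fell in both experiments, by 1.36 on the log2 scale (limma adjusted p = 0.0114) and by 1.37 (limma adjusted p = 9.18e-04). It was the single one of 5 erythroid genes tested to pass in each, and the globin genes Hba-a1 (limma adjusted p = 0.656 and 0.294) and Hbb-bs (limma adjusted p = 0.676 and 0.649) did not. Of 10 hepatocyte markers tested with fenofibrate, Tat and Ass1 were higher and Serpina1c was lower in B2D+FF than in Ctrl+FF. Without it none passed in limma, with 2 lower and 2 higher at an unadjusted p under 0.05, and voom called Cps1 higher in both experiments. Leaving out single mice lost the calls of Lyve1 (Ctrl+FF 1, 2 or 3, B2D+FF 4), Retnlg (Ctrl+FF 1, 2 or 3, B2D+FF 1 or 4), Tat (Ctrl+FF 1) and Ass1 (each of the 8), with adjusted p up to 0.107 in limma.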

How the data were processed

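Liver RNA of 18 mice was sequenced as paired ends from libraries of mRNA. Per the labels and the methods, the authors aligned reads to mm10 with STAR, counted them with featureCounts (versions not given in the sources used here), tested genes with DESeq2 and deposited a table of FPKM per experiment (RPKM in the methods), each normalized on its own. The FPKM were used as deposited. FPKM times gene length gave whole reads, which voom used. Genes with a mean of at least 0.5 FPKM were transformed to log2(FPKM + 1) and tested with limma 3.58.1 (trend) in R 4.3.3, each table alone, with Benjamini-Hochberg adjustment over all genes tested and a threshold of 0.05. The diet effects were contrasted in 1 fit of all 18 libraries. The code of the fit was run on simulated data with changes larger than that of Clec4f. That run therefore does not give its power for changes of the size seen here. Exact permutation tests were two-sided (SciPy 1.17.1). All value columns were matched to a mouse by its number, mice then being numbered from 1 within groups.

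Named were the 10 genes, up to 5 genes of each list past the adjusted threshold, the 5 nearest to the resident and class II means, Csf1, Il34, Ciita and the check markers Cd79a, Cd3e, S100a8, Stab2 and Alb. H2-Eb1, H2-DMb1, H2-Ab1, C1qb, C1qc and Hmgxb3 were added after their values were seen, as partners or neighbours of named genes, and Axl, Mpeg1, Col3a1 and Cps1 as calls of voom alone. Ear2, Cd9, Fabp5, Cd63 and Spp1 were also added after their values were seen. Lists were written from general knowledge, and the members and lists were chosen with earlier results of these data known. Each library came from a separate mouse, so p-values measure the spread between mice. One result among the general myeloid genes without fenofibrate is not reported here. Promoters were RefSeq sequences of GRCm38.p6, which matched 7 of the 10 genes for the search. Alternatives were a pseudocount of 0.1, no filter, a mean of at least 5 FPKM, rescaling to the 75th percentile, quantile normalization, array weights, voom, all groups in 1 fit, unadjusted p and each mouse left out.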

Additional observations from a re-analysis of the deposited data

Results flagged for a closer look

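In each of the 40 combinations of 10 genes and 4 groups, the mouse farthest from the others was compared with Dixon's 95% critical value, which chance passes in about 1 in 20 groups, and 4 passed. All 4 were class II values. Cd74 stood at 54.1 FPKM in Ctrl mouse 1, where the next was 31.7, at 35.5 in Ctrl+FF mouse 2, where the next was 18.4, and at 19.6 in B2D+FF mouse 3, where the next was 8.82. H2-Aa stood at 5.96 FPKM in B2D+FF mouse 3, where the next was 2.39. These mice also had the highest summed level of 11 dendritic cell markers in their groups, at 3.68, 2.93 and 2.14 FPKM, while the summed B cell markers were highest in the group in Ctrl mouse 1 (5.76 FPKM) but not in Ctrl+FF mouse 2 (3.20, the lowest) or B2D+FF mouse 3 (1.40). Ctrl+FF mouse 2 was also highest of its group for summed T and NK cell (2.75 FPKM), neutrophil (4.60) and erythroid markers (630). B2D+FF mouse 3 was highest for T and NK cell markers (1.79), but not for neutrophil (5.98) or erythroid markers (371). Ctrl mouse 1 was highest for erythroid markers (250), but not for T and NK cell (2.86) or neutrophil markers (0.986). The part of any cell type in the high values was not tested.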

How the results depend on the processing

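The counts of the 10 genes past the adjusted threshold moved as follows. Without fenofibrate the 1 lower gene, Clec4f, became 0 with no filter, upper-quartile rescaling, quantile normalization, voom and all 4 groups in 1 fit, and ran from 0 to 1 with each mouse left out. Its adjusted p was 0.0812, 0.0663, 0.102, 0.0571 and 0.0639 in those 5 settings. It passed with a pseudocount of 0.1, a mean of at least 5 FPKM, array weights and without Ctrl 3. By unadjusted p, the count of higher genes went from 0 to 1 (Marco). With fenofibrate the 0 lower genes became 1 with all 4 groups in 1 fit (Clec4f, adjusted p = 0.0431), 4 by unadjusted p, and ran from 0 to 2 with each mouse left out, the 2 being Cd74 and H2-Aa without B2D+FF 3. Where a call was lost or gained, the cause was not tested.

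Of the log2 fold changes, that of Vsig4 without fenofibrate turned positive without Ctrl 5 or B2D 1 and ran from -0.16 to 0.0395 with each mouse left out. The differences between the experiments turned positive for 5 genes with single mice left out, each positive value below its SE, and ran from -0.25 to 0.0158 for Clec4f, from -0.22 to 0.15 for Cd5l, from -0.90 to 0.35 for Marco, from -0.29 to 0.12 for Timd4 and from -0.255 to 0.16 for Adgre1. Quantile normalization also turned Timd4, to 0.0041. Of the other genes named, no log2 fold change past the threshold turned its sign. Those near 0 did, and with each mouse left out they ran from -0.17 to 0.26 for C1qa, from -0.29 to 0.15 for C1qb, from -0.27 to 0.12 for C1qc and from -0.12 to 0.12 for Il34 with fenofibrate, and from -0.0571 to 0.27 for Paqr9 and from -0.0369 to 0.0705 for Csf1 without it. C1qa also turned with upper-quartile rescaling (-0.0291), Paqr9 with array weights (-0.0226) and Il34 with quantile normalization (0.0462) and array weights (0.0219). C6, Alas2 and Serpina1c with fenofibrate passed in all 16 settings. Alas2 without fenofibrate was lost with no filter (adjusted p = 0.0535). Scaling moved the median of all genes by less than 0.1 in each case. The mean of at least 5 FPKM left 6 genes tested without fenofibrate and 4 with it. No paired analysis was possible because the mouse numbers in the labels are unique to each mouse and shared by no groups.

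Depth limits Cd68, Timd4 and the low Marco values most, at 44, 46 and 18 reads in the lowest library. The deposited values cannot separate cell number from RNA per cell.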

Other observations

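Hmox1, the haem oxygenase that Kupffer cells use on the haem of cleared red cells, had a higher mean in both deficient groups, at 8.42 FPKM in Ctrl and 11.5 in B2D (log2 fold change 0.40, limma adjusted p = 0.137) and 9.90 and 15.2 FPKM with fenofibrate (0.52, limma adjusted p = 0.203). It was picked after its values were seen and did not pass in either, though without B2D+FF mouse 3 it did (limma adjusted p = 0.0340). Axl, a receptor tyrosine kinase for dying cells that mouse Kupffer cells carry, had means of 2.62 FPKM for Ctrl+FF mice and 1.54 for B2D+FF (-0.50, limma adjusted p = 0.0768), short of the threshold and chosen in the same way, though voom called it lower (adjusted p = 0.0429).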
